A study of Mus musculus with 120 samples.

Results

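Rbm3 and Cirbp encode the cold-inducible RNA-binding proteins, and both were read by gene symbol in all 120 libraries of a mouse brain RNA-seq study of sleep amount. They are 2 of 49466 genes kept, and 1 row of each table carried each symbol. Sleepy mice (labelled SLP, genotype Sik3E13Δ/+) carry 1 copy of an allele of Sik3, which encodes salt-inducible kinase 3, and were set against wild-type (WT) mice, all of strain C57BL/6J. All were injected behind the eye with an AAV vector and dissected 3 weeks later. The vector carried HDAC4CA, derived from HDAC4, a histone deacetylase that represses transcription, or CREB, a transcription factor activated by cAMP signalling, or a fluorescent protein as control. Polyadenylated RNA came from cortex, thalamus and hypothalamus at ZT12.5, shortly after lights off, or ZT0.5, shortly after lights on, where ZT is zeitgeber time in hours since lights on.

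The groups with values in FPKM (fragments per kilobase of exon, scaled to library size) were Sleepy with CREB at ZT12.5, Sleepy with HDAC4CA at both times, Sleepy with eGFP at both times and WT with eGFP at both times, in 84 libraries. The groups in RPKM (reads per kilobase, scaled likewise) were WT with HDAC4CA, with CREB and with mCherry, all at ZT12.5, in 36 libraries. Each group of each region held 4 libraries, which the design text calls biological replicates. Sex, age, the promoter of the transgenes and the share of cells they reached are not given in the sources used here. All mice, controls included, carried virus, so no group shows the untreated brain. The RPKM and FPKM values were compared only within their own set.

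Rbm3 and Cirbp proteins bind RNA through an RNA recognition motif at the amino end, followed by a glycine-rich tail. Mild cooling raises both in mammalian cells and hibernating animals, and in mice their transcripts follow the daily course of body temperature, high when the body is cool and low when it is warm. Cirbp acts on the choice of polyadenylation sites of clock gene transcripts, and Rbm3 promotes translation and the regrowth of synapses after cooling in mouse brain. The heat shock genes, which encode chaperones, follow temperature in the opposite direction.

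On GRCm38, Rbm3 (ENSMUSG00000031167.16) lies on the minus strand at chrX:8138975-8145880, with 4698 bases of exon. Its exons share 94 bases with Rbm3os, an antisense gene on the plus strand at chrX:8145429-8147964. The strand setting of the authors' counting is not stated in those sources, and reads in those bases cannot be assigned to 1 of the 2 genes. Cirbp (ENSMUSG00000045193.13) lies on the plus strand at chr10:80165985-80172786, with 2604 bases of exon and no annotated gene overlapping them. The start of both coding sequences is shown to let the relatedness of the pair be seen, taken from 1 GENCODE M21 transcript of each gene on GRCm38 (spliced from chrX:8143272-8145057, minus strand, and chr10:80169814-80170998, plus strand), 5′ to 3′, with capitals marking the codons of RNP1, the 8-residue core of the RNA recognition motif, at residues 47 to 54 of both proteins.
Rbm3: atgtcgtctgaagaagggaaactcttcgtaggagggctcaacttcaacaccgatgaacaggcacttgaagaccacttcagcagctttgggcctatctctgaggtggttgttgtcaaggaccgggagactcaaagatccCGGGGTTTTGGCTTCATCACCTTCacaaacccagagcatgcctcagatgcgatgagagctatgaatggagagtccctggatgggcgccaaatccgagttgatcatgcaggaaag
Cirbp: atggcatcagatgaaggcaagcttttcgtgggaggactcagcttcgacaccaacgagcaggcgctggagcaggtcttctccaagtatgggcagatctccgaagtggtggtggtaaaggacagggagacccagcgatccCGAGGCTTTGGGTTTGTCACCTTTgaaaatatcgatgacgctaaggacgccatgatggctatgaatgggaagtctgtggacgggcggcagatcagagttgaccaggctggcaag

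The encoded proteins have 154 residues for Rbm3 and 172 for Cirbp, and 110 of 150 aligned residues (73.3%) were identical. Glycine made up 32.8% of residues after position 90 in Rbm3 and 31.7% in Cirbp. The coding sequences were 72.8% identical, but the longest run of identical bases that the transcripts shared was 11 bases.

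The Cirbp promoter is shown because both genes moved together within regions over the FPKM libraries and because an element for mild-cold induction was described in the Cirbp promoter. The RefSeq sequence on GRCm38.p6 covers chr10:80167589-80167888 on the plus strand, 250 bases before to 50 after the start of transcription, and capitals mark the mild-cold element TCCCCGCC.
Cirbp: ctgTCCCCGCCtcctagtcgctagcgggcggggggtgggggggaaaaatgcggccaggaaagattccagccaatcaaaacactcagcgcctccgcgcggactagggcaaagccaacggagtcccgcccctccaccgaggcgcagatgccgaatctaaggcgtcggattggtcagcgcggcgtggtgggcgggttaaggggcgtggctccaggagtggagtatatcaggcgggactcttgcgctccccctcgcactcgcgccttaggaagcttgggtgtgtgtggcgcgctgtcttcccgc

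The element occurred once, starting at position -247 relative to the start site, and 5.38% of 32851 promoters in the table held it on either strand. The cAMP response element TGACGTCA (1.79% of promoters), its core TGACG (20.8%), the E-box CACGTG (7.15%) and the heat shock element GAANNTTC (7.86%) did not occur in this window on either strand. Another annotated Cirbp start, with its promoter at chr10:80167921-80168220, held 0 copies of the mild-cold element and 1 copy of TGACG on the minus strand, at position -60. No Rbm3 promoter was available in the sources used here. These matches describe letters only.

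Library depth, recovered from the deposited values and exon lengths, was 13520000 to 28160000 reads, with a median of 18690000. In FPKM or RPKM, Hdac4 averaged 5.21 to 9.59 in the HDAC4CA groups and 2.48 to 3.54 in all other groups, and Creb1 5.02 to 17.1 in the CREB groups and 2.15 to 3.84 in all others. The presence or absence of HDAC4CA and CREB thus followed the labels in all 30 groups, while eGFP and mCherry themselves were not read. Sik3 averaged 7.1 to 13.5 FPKM in Sleepy groups and 7.86 to 13.6 FPKM in WT groups, and a total over the gene does not check a deletion of 1 exon. The 84 FPKM libraries were of 1 kind, with ribosomal protein genes averaging 4.02 to 5.08 on the log2 scale. In the RPKM set all thalamus and hypothalamus libraries and replicate 4 of each cortex group stood apart, at 1.81 to 2.25 against 4 to 4.22 in the other 9 cortex libraries, and results in that set are given with this split. In these bulk samples, fewer cells of a type and less RNA per cell cannot be told apart.

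Both genes were expressed in every library. Across the 84 FPKM libraries Rbm3 ranged from 2.19 to 7.89 FPKM with a median of 5.13 FPKM, and Cirbp from 3.39 to 16.3 FPKM with a median of 9.0 FPKM. Between 119 and 733 reads stood behind each Rbm3 value of the series, and between 125 and 1306 behind each Cirbp value. In all 3 regions the lowest mean of both genes was in Sleepy with HDAC4CA at ZT0.5 and the highest was in Sleepy with CREB at ZT12.5. In cortex, mean Rbm3 was 7.29 ± 0.379 FPKM in Sleepy with CREB and 3.51 ± 0.832 FPKM in Sleepy with HDAC4CA at ZT0.5 (SD, n = 4 each). Mean Cirbp was 8.74 ± 0.694 FPKM in Sleepy cortex with CREB and 4.18 ± 0.555 FPKM in Sleepy cortex with HDAC4CA at ZT0.5 (SD, n = 4 each). Groups next to each other in the order of means mostly overlapped: 20 of 20 neighbouring pairs for Rbm3 and 18 of 20 for Cirbp in the FPKM set, and 8 of 8 for Rbm3 and 6 of 8 for Cirbp in the RPKM set. The spread within a group, as the coefficient of variation, had a median of 14.9% for Rbm3 and 9.25% for Cirbp in the FPKM set.

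**Figure D1:**
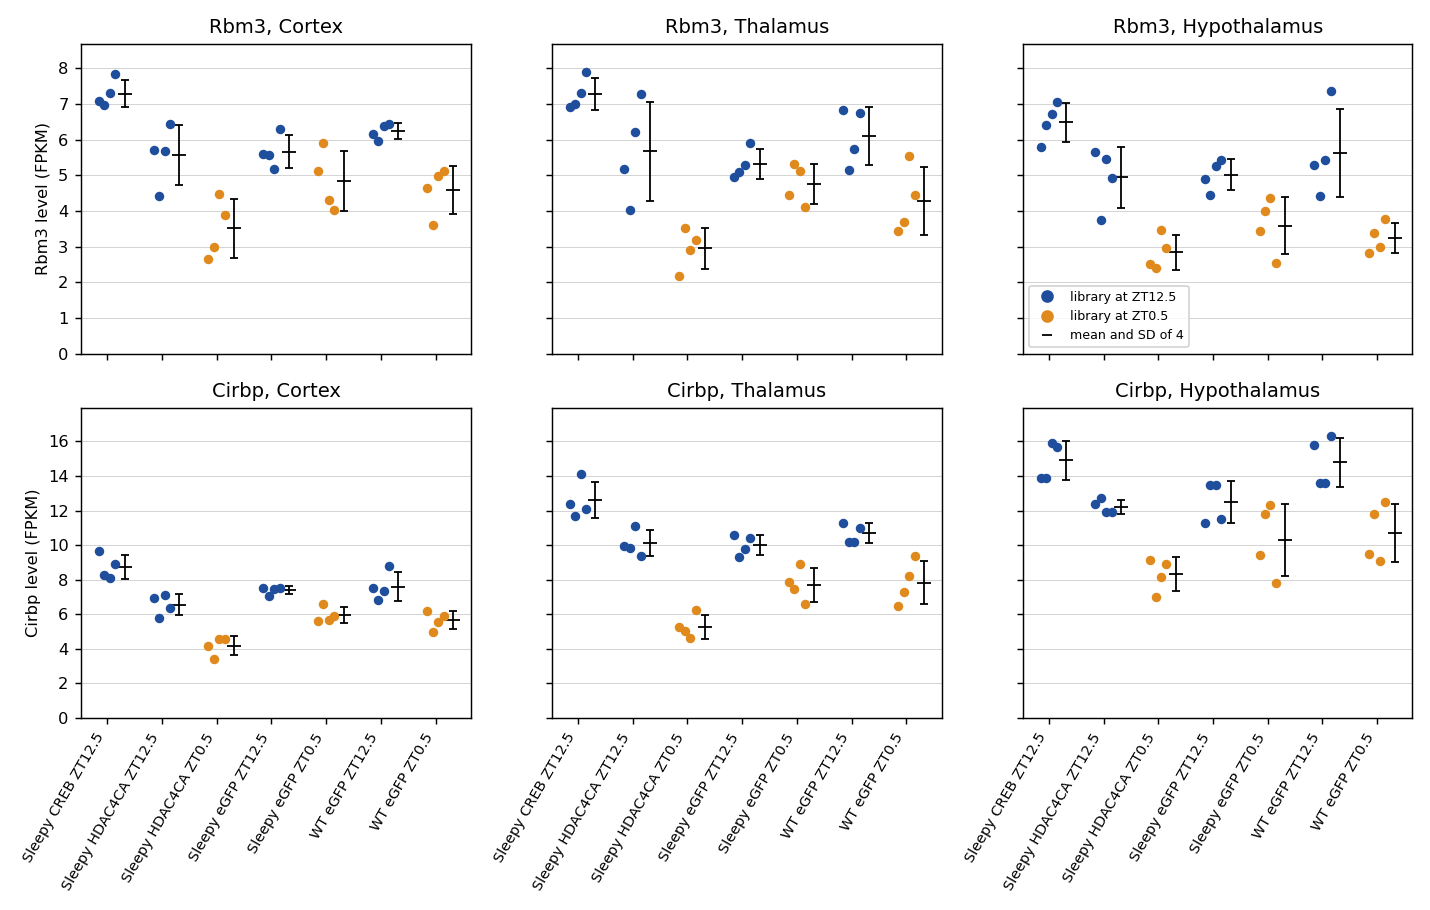
Levels of Rbm3 (top row) and Cirbp (bottom row) in FPKM in cortex, thalamus and hypothalamus, by group, where each point is 1 library and the bar beside it is the mean with the SD of 4 libraries. Sleepy with CREB at ZT12.5 holds the highest means and Sleepy with HDAC4CA at ZT0.5 the lowest in all 3 regions, and within each condition ZT12.5 (blue) lies above ZT0.5 (orange) on average.

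Time of day was compared within each condition that has both times, and then over the 3 conditions together. Both genes were higher at ZT12.5 in all 3 regions. In WT cortex with eGFP, Rbm3 had 6.16, 5.95, 6.38 and 6.44 FPKM at ZT12.5 and 4.64, 3.61, 4.98 and 5.12 FPKM at ZT0.5. Cirbp in the same tissue had 7.49, 6.84, 7.32 and 8.77 FPKM at ZT12.5 and 6.18, 4.97, 5.53 and 5.91 FPKM at ZT0.5. Neither gene's groups overlapped there. Rbm3 rose by 0.54 ± 0.1 on the log2 scale (SE, 1.46-fold, adjusted p = 0.028) and Cirbp by 0.52 ± 0.08 (1.43-fold, adjusted p = 0.021), where 0.898% of all genes were called higher. All differences are fitted by limma on log2(scaled value + 0.1), adjusted over all genes tested, and called at an adjusted p under 0.05.

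In WT thalamus with eGFP, Rbm3 had 6.82, 5.14, 5.74 and 6.75 FPKM at ZT12.5 and 3.43, 3.7, 5.55 and 4.44 FPKM at ZT0.5, groups that overlapped through 1 library at ZT0.5. Cirbp had 11.3, 10.2, 10.2 and 11 FPKM at ZT12.5 and 6.46, 7.28, 8.23 and 9.35 FPKM at ZT0.5, with no overlap. Rbm3 rose by 0.60 ± 0.11 (adjusted p = 0.0046) and Cirbp by 0.54 ± 0.08 (adjusted p = 0.0018), in a region where 15.9% of all genes were called higher. In WT hypothalamus with eGFP, Rbm3 had 5.3, 4.43, 5.43 and 7.36 FPKM at ZT12.5 and 2.82, 3.39, 3.0 and 3.77 FPKM at ZT0.5. The Rbm3 groups did not overlap, and Rbm3 rose 1.67-fold (log2 0.74 ± 0.11, adjusted p = 0.033), where 0.145% of all genes were called higher. Cirbp had 15.8, 13.6, 13.6 and 16.3 FPKM at ZT12.5 and 9.47, 11.8, 9.09 and 12.5 FPKM at ZT0.5 there, a difference of 0.45 ± 0.09 that was not called (adjusted p = 0.078) although the groups did not overlap.

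In Sleepy brains with eGFP the differences were smaller in value. Rbm3 differed by 0.32 ± 0.1 in cortex (adjusted p = 0.074), 0.22 ± 0.09 in thalamus (adjusted p = 0.11) and 0.49 ± 0.14 in hypothalamus (adjusted p = 0.26), none of them called. Rbm3 means were 5.66 ± 0.461 FPKM at ZT12.5 and 4.84 ± 0.841 FPKM at ZT0.5 in cortex, and the ranges overlapped (SD, n = 4 each). Cirbp rose by 0.40 ± 0.06 in cortex (adjusted p = 0.0064) and 0.44 ± 0.09 in thalamus (adjusted p = 0.0083), where 4.63% and 11.3% of all genes were called higher. Its ranges at both times did not overlap in either region. In hypothalamus Cirbp differed by 0.29 ± 0.12 (adjusted p = 0.49), with overlap, where 0.255% of all genes were called higher.

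In Sleepy brains with HDAC4CA the differences were the widest in value of the 3 conditions, for both genes and in every region. In thalamus, Rbm3 had 5.18, 4.03, 6.2 and 7.29 FPKM at ZT12.5 and 2.19, 3.53, 2.9 and 3.2 FPKM at ZT0.5. Cirbp had 9.96, 9.84, 11.1 and 9.34 FPKM at ZT12.5 and 5.23, 5.03, 4.6 and 6.24 FPKM at ZT0.5. Neither gene's groups overlapped, and Rbm3 rose 1.89-fold (log2 0.92 ± 0.19, adjusted p = 0.0082) and Cirbp 1.91-fold (log2 0.94 ± 0.11, adjusted p = 0.00071), where 15.4% of all genes were called higher. In the same thalamus libraries 7 of 12 choroid plexus markers fell (12.3% of all genes called lower), with sums of 40.4 to 49.7 FPKM at ZT12.5 and 58.8 to 1333 FPKM at ZT0.5 and none at 0, and their part in the higher Rbm3 and Cirbp was not tested. In cortex Rbm3 rose by 0.74 ± 0.16 (adjusted p = 0.036) and Cirbp by 0.71 ± 0.11 (adjusted p = 0.011), where 2.34% of all genes were called higher. In hypothalamus Cirbp rose by 0.67 ± 0.07 (adjusted p = 0.008), ranking 3 of 17238 genes by p, where 0.0928% of all genes were called higher, and Rbm3 differed by 0.88 ± 0.15 without being called (adjusted p = 0.064). Means there were 12.2 ± 0.405 FPKM at ZT12.5 and 8.3 ± 0.985 FPKM at ZT0.5 for Cirbp (SD, n = 4 each).

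Over the 9 comparisons of time, Rbm3 was higher at ZT12.5 in 9 and called in 5, and Cirbp was higher in 9 and called in 7. The groups did not overlap in 5 for Rbm3 and in 8 for Cirbp, and the share of all genes without overlap was not computed. With the 3 conditions pooled, 12 libraries a time, both genes were called in each region. Rbm3 rose by 0.54 ± 0.08 in cortex (adjusted p = 3e-05), 0.58 ± 0.1 in thalamus (adjusted p = 5.8e-05) and 0.70 ± 0.09 in hypothalamus (adjusted p = 1.2e-05). Cirbp rose by 0.55 ± 0.06 in cortex (adjusted p = 2.7e-07), 0.64 ± 0.07 in thalamus (adjusted p = 1.2e-07) and 0.47 ± 0.07 in hypothalamus (adjusted p = 4.1e-05). The share of all genes called higher at ZT12.5 was 15.8% in cortex, 28% in thalamus and 4.54% in hypothalamus. By p, Cirbp ranked 70 of 16184 genes in cortex and Rbm3 63 of 17236 in hypothalamus, while Rbm3 ranked 3131 of 16838 in thalamus. Leaving out any 1 of the 24 libraries kept every pooled call.

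Several calls within a single condition depended on single libraries. The Rbm3 call in WT hypothalamus was lost without any 1 of its 8 libraries (0.64 to 0.81, adjusted p between 0.052 and 0.12). The Rbm3 call in WT cortex was lost without replicate 1 or 3 at ZT0.5 or any replicate at ZT12.5 (adjusted p up to 0.086), and that in Sleepy cortex with HDAC4CA without replicate 1, 3 or 4 at ZT12.5 or replicate 1, 2 or 4 at ZT0.5 (adjusted p up to 0.096). The Cirbp call in WT cortex was lost without replicate 1, 2 or 3 at ZT0.5 (adjusted p up to 0.059) and that in Sleepy hypothalamus with HDAC4CA without replicate 3 at ZT12.5 (adjusted p = 0.053). A call was gained by Rbm3 in Sleepy thalamus with eGFP without replicate 2 at ZT0.5 (0.30, adjusted p = 0.043) and Rbm3 in Sleepy hypothalamus with HDAC4CA without replicate 2 at ZT12.5 (1.01, adjusted p = 0.034).

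**Figure D2:**
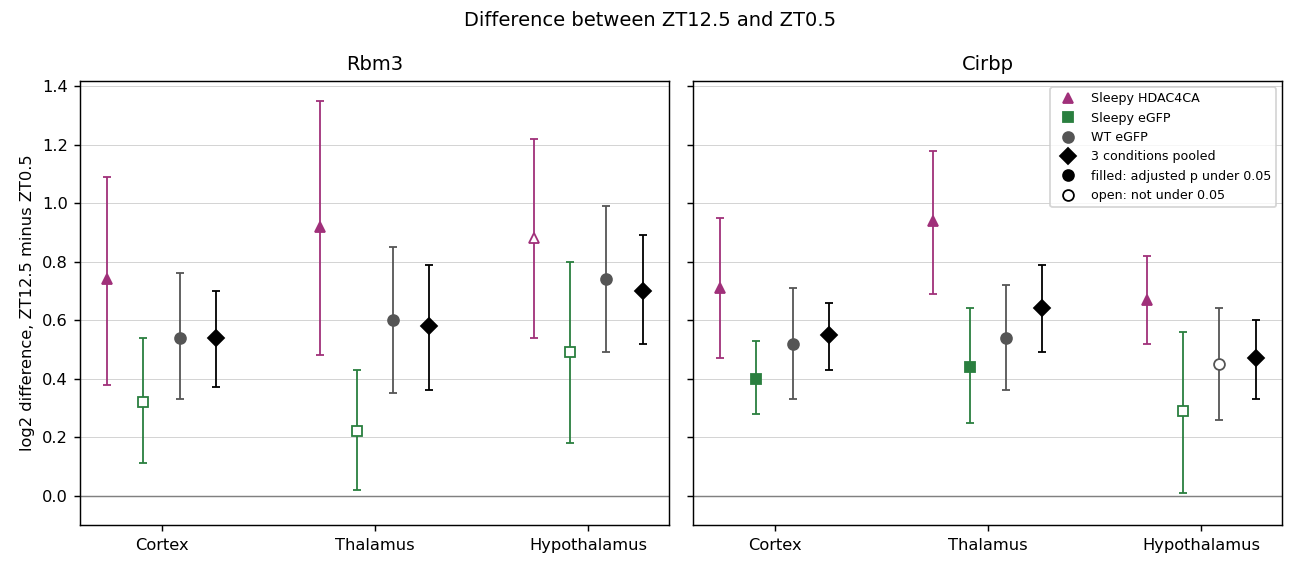
Log2 difference between ZT12.5 and ZT0.5 for Rbm3 (left) and Cirbp (right) in 3 regions, with 95% confidence intervals, for Sleepy with HDAC4CA, Sleepy with eGFP, WT with eGFP and the 3 conditions pooled, where filled symbols passed an adjusted p of 0.05. All estimates lie above 0, from 0.22 to 0.94, and those of Sleepy with HDAC4CA are the highest in each region.

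Whether the time difference itself differed between conditions was tested by interaction terms. Between genotypes (Sleepy minus WT, both with eGFP) the Rbm3 term was -0.23 ± 0.15 for cortex, -0.36 ± 0.15 for thalamus and -0.25 ± 0.19 for hypothalamus. The Cirbp term was -0.12 ± 0.1 for cortex, -0.07 ± 0.13 for thalamus and -0.16 ± 0.16 for hypothalamus. Adjusted p was at least 0.69, so a smaller time difference in Sleepy brains was not shown. Between transgenes in Sleepy brains (HDAC4CA minus eGFP) the terms were 0.42 ± 0.2, 0.69 ± 0.23 and 0.39 ± 0.22 for Rbm3 in cortex, thalamus and hypothalamus, and 0.32 ± 0.13, 0.49 ± 0.15 and 0.39 ± 0.14 for Cirbp. None was called (adjusted p at least 0.49). In these 6 fits 0% of all genes were called by limma, with 809 to 1311 genes at an unadjusted p under 0.05, and voom called at most 3 genes. Unadjusted, the thalamus terms had 95% intervals of 0.21 to 1.17 for Rbm3 and 0.17 to 0.81 for Cirbp. Between regions of WT brains with eGFP the terms lay between -0.19 and 0.15 for both genes, with adjusted p of at least 0.6, where 0.916%, 0.0999% and 13.4% of all genes were called (cortex with thalamus, cortex with hypothalamus, hypothalamus with thalamus).

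Genes tied to temperature and to the clock were read in the same pooled fits. Heat shock genes moved the other way: 0 of 21 rose and 12 fell in cortex, 14 in thalamus and 17 in hypothalamus, with medians of -0.17, -0.24 and -0.20 against 0.01 for all genes in each region. The share of all genes called lower was 13.1%, 24.4% and 3.81%. Hsph1, an Hsp110 chaperone, fell by 0.32 ± 0.03 in cortex (adjusted p = 1e-07), by 0.46 ± 0.03 in thalamus (adjusted p = 1.2e-10) and by 0.39 ± 0.04 in hypothalamus (adjusted p = 1.3e-07). Chordc1, a co-chaperone of Hsp90, fell by 0.51 ± 0.05 in cortex, 0.71 ± 0.06 in thalamus and 0.41 ± 0.05 in hypothalamus (adjusted p at most 3.5e-06). Of 21 measured clock genes, 10 rose and 4 fell in cortex, 10 and 4 in thalamus, and 9 and 5 in hypothalamus. Dbp, a transcriptional output of the clock, rose by 1.17 ± 0.08 in cortex, 1.38 ± 0.07 in thalamus and 0.88 ± 0.09 in hypothalamus (adjusted p at most 4.5e-07).

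Other RNA-binding proteins, the hnRNP, SR and Rbm genes, were called in both directions. Of 34, 4 rose and 15 fell in cortex, 4 and 18 in thalamus, and 6 and 8 in hypothalamus, with medians of -0.07, -0.15 and -0.04. For reading these counts, the shares of all genes called higher and lower were 15.8% and 13.1% in cortex, 28% and 24.4% in thalamus, and 4.54% and 3.81% in hypothalamus. Hnrnpc, which packages nascent transcripts, fell by 0.32 ± 0.03 in cortex, by 0.41 ± 0.03 in thalamus and by 0.25 ± 0.03 in hypothalamus (adjusted p at most 3.4e-06). Hnrnpa0, another hnRNP, rose by 0.31 ± 0.03 in cortex. Of the genes described upstream or downstream of Rbm3 and Cirbp in cooling, 1 of 11 rose and 1 fell in cortex, 2 of 12 rose and 6 fell in thalamus, and 2 of 12 rose and 0 fell in hypothalamus. Against the same shares of all genes, 1 of 11 either way in cortex and 2 of 12 rising in thalamus were below the background. Sp1, described as a factor on the mild-cold element, fell by 0.17 ± 0.05 in cortex (adjusted p = 0.0068) and by 0.25 ± 0.04 in thalamus (adjusted p = 1.6e-05). Mapk3 (Erk1), a kinase of growth factor signalling, rose by 0.22 ± 0.06 in cortex and by 0.21 ± 0.03 in thalamus. Rtn3, named as a target of Rbm3 in mouse brain, fell by 0.15 ± 0.02 in thalamus (adjusted p = 1.6e-06) and rose by 0.08 ± 0.03 in hypothalamus (adjusted p = 0.038).

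Markers of other cells were read for time in the same pooled fits. Blood genes (haemoglobins and Alas2) were called higher in 3 of 5 in cortex and thalamus and 0 of 5 in hypothalamus. Their summed level in WT cortex with eGFP was 75.4 to 109 FPKM at ZT12.5 and 44.3 to 78.3 FPKM at ZT0.5. Of 10 endothelial markers, 1 rose and 4 fell in cortex, 1 and 7 in thalamus, and 2 and 3 in hypothalamus, where 15.8% of all genes were called higher and 13.1% lower in cortex, 28% and 24.4% in thalamus, and 4.54% and 3.81% in hypothalamus. Of 10 astrocyte markers, 2 rose and 6 fell in cortex, 2 and 5 in thalamus, and 2 and 2 in hypothalamus. The rising counts in cortex and thalamus were near or below those shares. Of 10 microglial markers, 2 rose and 1 fell in cortex, 5 and 3 in thalamus, and 0 and 1 in hypothalamus, where the cortex and hypothalamus counts were near the same shares. Endothelial markers summed to 32.5 to 34.1 FPKM at ZT12.5 and 38.6 to 46 FPKM at ZT0.5 in WT cortex with eGFP. Astrocyte markers summed there to 369 to 408 FPKM at ZT12.5 and 413 to 453 FPKM at ZT0.5. Microglial markers summed there to 63.9 to 81.9 FPKM at ZT12.5 and 72.3 to 93.6 FPKM at ZT0.5, ranges that overlapped. No marker of these 4 lists was at 0 in all 4 libraries of a group. Their part in the differences of Rbm3 and Cirbp was not tested.

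**Figure D3:**
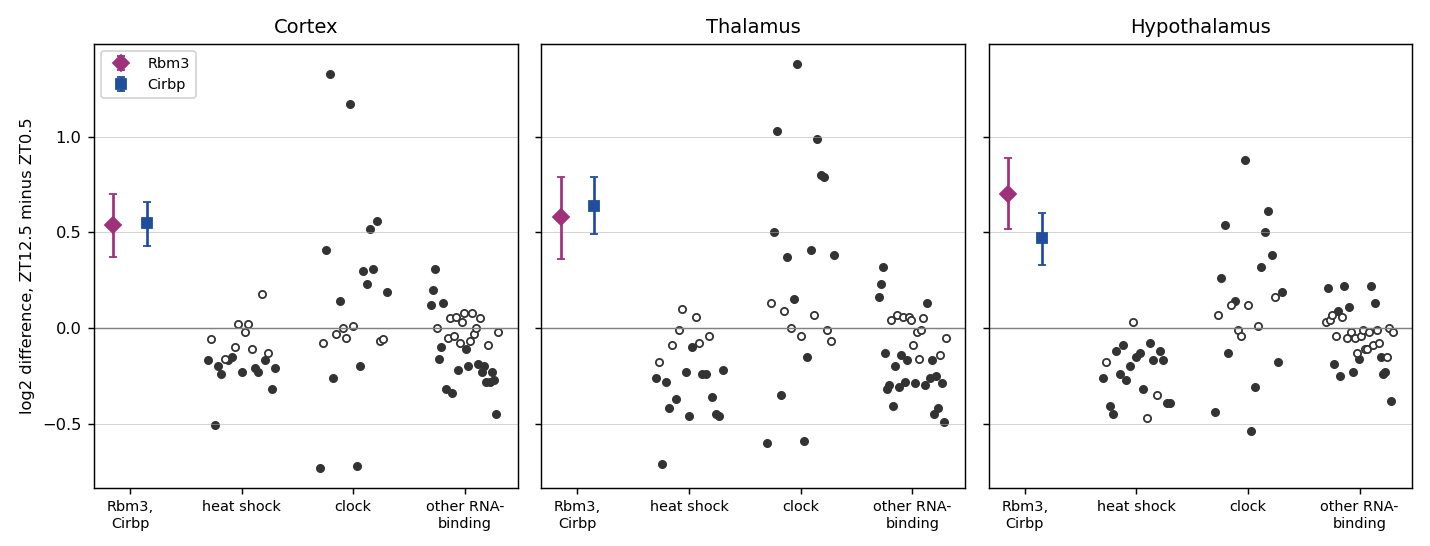
Log2 difference between ZT12.5 and ZT0.5, 3 conditions pooled, for Rbm3 and Cirbp with 95% confidence intervals and for each gene of the heat shock, clock and other RNA-binding protein lists, in cortex, thalamus and hypothalamus, where filled points passed an adjusted p of 0.05. Rbm3 and Cirbp lie between 0.47 and 0.70, while the called heat shock genes all lie below 0 and the clock genes on both sides.

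HDAC4CA was set against eGFP in Sleepy mice to read the effect of the transgene on the Sik3 mutant background. At ZT0.5 both genes were lower in value with HDAC4CA in all 3 regions. In thalamus, Rbm3 had 2.19, 3.53, 2.9 and 3.2 FPKM with HDAC4CA and 4.46, 5.31, 5.12 and 4.11 FPKM with eGFP. Cirbp had 5.23, 5.03, 4.6 and 6.24 FPKM with HDAC4CA and 7.84, 7.47, 8.89 and 6.57 FPKM with eGFP. Every HDAC4CA library lay below every eGFP library for both genes. Rbm3 fell to 0.659-fold (log2 -0.60 ± 0.15, adjusted p = 0.035) and Cirbp to 0.728-fold (log2 -0.46 ± 0.11, adjusted p = 0.028), where 3.6% of all genes were called lower.

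In cortex, Cirbp had 4.18, 3.39, 4.56 and 4.58 FPKM with HDAC4CA and 5.58, 6.59, 5.65 and 5.91 FPKM with eGFP, without overlap. It fell to 0.71-fold (log2 -0.49 ± 0.1, adjusted p = 0.022), where 1.88% of all genes were called lower. Rbm3 in cortex had 2.66, 2.99, 4.48 and 3.9 FPKM with HDAC4CA and 5.11, 5.9, 4.3 and 4.04 FPKM with eGFP, groups that overlapped, and its difference of -0.46 ± 0.16 was not called (adjusted p = 0.16). In hypothalamus neither gene was called: Rbm3 differed by -0.38 ± 0.16 (adjusted p = 0.58) and Cirbp by -0.36 ± 0.12 (adjusted p = 0.51), where 0% of all genes were called lower and 3 of 17106 genes were called at all.

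The 3 calls at ZT0.5 depended on single libraries. The Rbm3 call in thalamus was lost without replicate 3 or 4 of HDAC4CA or replicate 1, 2 or 3 of eGFP (adjusted p up to 0.099), and the Cirbp call without replicate 1, 2 or 3 of either group (adjusted p up to 0.084). The Cirbp call in cortex was lost without replicate 2, 3 or 4 of eGFP (adjusted p up to 0.069). Without the filter on low values, which adds genes to the adjustment, all 3 were lost (adjusted p = 0.092 and 0.079 in thalamus, 0.08 in cortex).

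At ZT12.5 the same comparison gave values between -0.17 and 0.09. Rbm3 differed by -0.03 ± 0.09 in cortex, 0.09 ± 0.15 in thalamus and 0.02 ± 0.13 in hypothalamus. Cirbp differed by -0.17 ± 0.07 in cortex, 0.03 ± 0.09 in thalamus and 0.03 ± 0.06 in hypothalamus. All 6 had adjusted p of at least 0.19 and overlapping groups throughout. The 95% intervals ran from -0.24 to 0.42 for Rbm3 in thalamus and from -0.34 to -0.01 for Cirbp in cortex. Of all genes, 4.62% were called lower in cortex, 5.56% in thalamus and 0.0173% in hypothalamus. Without HDAC4CA replicate 3, Cirbp in cortex fell by 0.25 (adjusted p = 0.027). Pooled over both times, Cirbp fell by 0.33 ± 0.07 in cortex (adjusted p = 0.0036, 8.69% of all genes called lower). No other pooled value was called (adjusted p at least 0.14), where 9.3% of all genes were called lower in thalamus and 0.424% in hypothalamus. The interaction terms given above did not show that the transgene's effect depended on time.

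Heat shock genes were read in the same comparisons. In thalamus at ZT0.5, 8 of 21 rose and 0 fell, with a median of 0.20 against -0.01 for all genes, and 5.25% of all genes were called higher. Hsp90aa1, the inducible Hsp90, rose by 0.35 ± 0.04 (adjusted p = 0.00063), Hspd1, the mitochondrial Hsp60, by 0.33 ± 0.04 (adjusted p = 0.0014), and the co-chaperone Stip1 by 0.36 ± 0.05 (adjusted p = 0.0033). In cortex at ZT0.5, 3 rose and 1 fell, where 2.44% of all genes were called higher, led by Hsph1 at 0.42 ± 0.05 (adjusted p = 0.0031). In hypothalamus at ZT0.5 limma called 3 of 17106 genes and none of this list, whose median was 0.13. At ZT12.5, where neither member was called, 8 of 21 rose and 2 fell in thalamus (median 0.14, 6.17% of all genes called higher), and 4 rose and 0 fell in cortex (median 0.08, 6.15% of all genes called higher). Of the clock list at ZT0.5, 0 rose and 7 fell in cortex and 1 rose and 2 fell in thalamus, Dbp by 0.94 ± 0.14 in cortex and 0.45 ± 0.08 in thalamus (adjusted p = 0.0072 and 0.0083). Of 33 other RNA-binding protein genes measured in cortex 0 were called by limma, and 1 rose and 1 fell in thalamus.

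Blood genes differed in the same libraries: 4 of 5 were called lower in cortex and 2 of 5 in thalamus, where 1.88% and 3.6% of all genes were called lower. Their summed level was 33.7 to 49.9 FPKM with HDAC4CA and 61.4 to 97.1 FPKM with eGFP in cortex, and 33.5 to 62.1 FPKM with HDAC4CA and 74.1 to 139 FPKM with eGFP in thalamus. In thalamus 6 of 11 neuronal markers rose and 1 fell, 1 of 10 astrocyte markers rose and 3 fell, and 0 of 12 oligodendrocyte markers rose and 3 fell. Of all genes there, 5.25% were called higher and 3.6% lower. Neuronal markers summed to 556 to 580 FPKM with HDAC4CA and 508 to 532 FPKM with eGFP, and oligodendrocyte markers to 689 to 846 FPKM with HDAC4CA and 926 to 994 FPKM with eGFP. Astrocyte markers summed to 391 to 420 FPKM with HDAC4CA and 438 to 473 FPKM with eGFP. None of these markers was at 0. Their part in the lower Rbm3 and Cirbp was not tested. At ZT12.5 in thalamus, where neither Rbm3 nor Cirbp was called, all 5 blood genes and all 12 choroid plexus markers were called lower, against 5.56% of all genes. Blood genes summed there to 43.2 to 97.1 FPKM with HDAC4CA and 95.5 to 193 FPKM with eGFP, and choroid plexus markers to 40.4 to 49.7 FPKM with HDAC4CA and 749 to 2060 FPKM with eGFP.

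**Figure D4:**
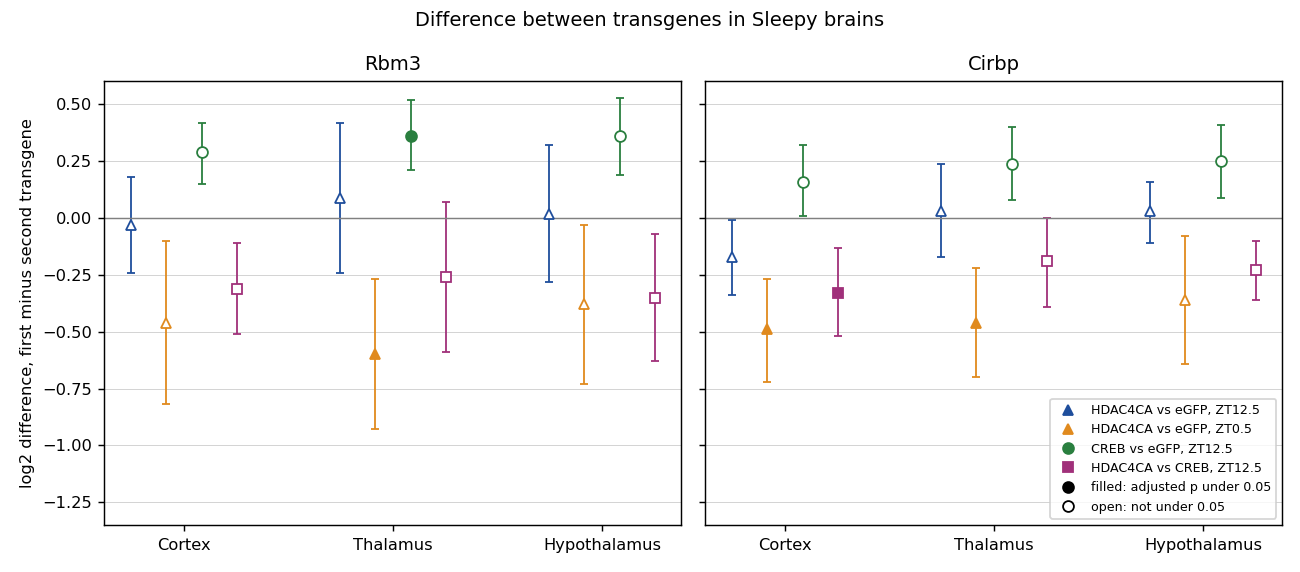
Log2 differences between transgenes in Sleepy brains for Rbm3 (left) and Cirbp (right) with 95% confidence intervals, for HDAC4CA against eGFP at ZT12.5 and at ZT0.5, CREB against eGFP at ZT12.5 and HDAC4CA against CREB at ZT12.5, where filled symbols passed an adjusted p of 0.05. The HDAC4CA values at ZT0.5 lie between -0.60 and -0.36, those at ZT12.5 between -0.17 and 0.09, and the CREB values between 0.16 and 0.36.

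CREB was set against eGFP in Sleepy mice at ZT12.5. Both genes were higher in value with CREB in all 3 regions, and every CREB library lay above every eGFP library in each of the 6 comparisons of a gene in a region. The share of all genes separated in this way was not computed, and both genes were read in the same libraries. In thalamus Rbm3 had 6.91, 6.99, 7.3 and 7.89 FPKM with CREB and 4.94, 5.09, 5.3 and 5.9 FPKM with eGFP. It rose 1.29-fold (log2 0.36 ± 0.07, adjusted p = 0.019), where 2.78% of all genes were called higher. Of the 6 values, 1 was called by this fit, and the call was lost without replicate 1 or 4 of CREB or replicate 1 or 2 of eGFP (adjusted p up to 0.058) and without the filter on low values (adjusted p = 0.051).

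In cortex Rbm3 had 7.07, 6.98, 7.3 and 7.83 FPKM with CREB and 5.59, 5.58, 5.18 and 6.29 FPKM with eGFP, a difference of 0.29 ± 0.06 (adjusted p = 0.18), where 0.0552% of all genes were called higher. In hypothalamus Rbm3 had 5.78, 6.4, 6.73 and 7.06 FPKM with CREB and 4.9, 4.45, 5.27 and 5.43 FPKM with eGFP. The difference of 0.36 ± 0.07 ranked 15 of 17408 genes by p but had an adjusted p of 0.83, and 0.00574% of all genes were called higher. Cirbp differed by 0.16 ± 0.07 in cortex (adjusted p = 0.52), 0.24 ± 0.07 in thalamus (adjusted p = 0.099) and 0.25 ± 0.07 in hypothalamus (adjusted p = 0.83). In thalamus its means were 12.6 ± 1.05 FPKM with CREB and 10 ± 0.571 FPKM with eGFP (SD, n = 4 each), and on deposited values without rescaling its difference of 0.32 was called (adjusted p = 0.03).

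In thalamus 4 of 21 heat shock genes rose with CREB and 0 fell, with a median of -0.01 and 2.78% of all genes called higher. They were Hspa1b at 1.36 ± 0.2 (adjusted p = 0.0072) and Hspa1a at 1.14 ± 0.18 (adjusted p = 0.011), near-identical copies of inducible Hsp70 whose reads the counting may have shared, Dnajb1, an Hsp40 co-chaperone, at 0.31 ± 0.06 (adjusted p = 0.024), and the heat shock factor Hsf2 at 0.41 ± 0.09 (adjusted p = 0.03). Of the clock list 0 of 21 were called by limma, of the cooling list 0 rose and 1 fell, and of 34 other RNA-binding protein genes 1 rose. Of 10 astrocyte markers 2 rose, none of them at 0, with sums of 465 to 487 FPKM with CREB and 384 to 409 FPKM with eGFP, and 1 of 11 neuronal markers rose, with sums of 473 to 571 FPKM with CREB and 488 to 537 FPKM with eGFP. Their part in the higher Rbm3 was not tested.

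HDAC4CA was also set directly against CREB at ZT12.5. Both genes were lower in value with HDAC4CA in all 3 regions of Sleepy and of WT brains. Of the 6 values of each gene, limma called 0 for Rbm3 and 2 for Cirbp, and voom called 2 for Rbm3 (Sleepy cortex and WT thalamus). The groups did not overlap in 2 for Rbm3 and in 5 for Cirbp, with the share of all genes without overlap not computed. In Sleepy cortex Cirbp had 6.91, 5.78, 7.13 and 6.35 FPKM with HDAC4CA and 9.65, 8.28, 8.12 and 8.92 FPKM with CREB, without overlap, and fell by 0.33 ± 0.09 (adjusted p = 0.044), where 4.31% of all genes were called lower. The call was lost without replicate 1, 2 or 4 of either group (adjusted p up to 0.11) and without the filter (adjusted p = 0.12). In the same libraries 1 of 10 astrocyte markers was higher and 4 lower, 3 of 11 neuronal markers were higher and 1 lower, and 1 of 21 clock genes was higher and 9 lower with HDAC4CA, where 5.8% of all genes were called higher. Astrocyte markers summed to 353 to 413 FPKM with HDAC4CA and 417 to 460 FPKM with CREB, neuronal markers to 548 to 626 FPKM with HDAC4CA and 561 to 588 FPKM with CREB, and none was at 0. Their part in the lower Cirbp was not tested. Rbm3 in Sleepy cortex had 5.71, 4.42, 5.67 and 6.44 FPKM with HDAC4CA and 7.07, 6.98, 7.3 and 7.83 FPKM with CREB, also without overlap, a difference of -0.31 ± 0.09 (adjusted p = 0.058), which passed with an adjusted p of 0.031 without HDAC4CA replicate 4. In Sleepy hypothalamus neither gene's groups overlapped (Rbm3 -0.35 ± 0.13, Cirbp -0.23 ± 0.06, adjusted p = 0.41 and 0.26), where 0.0172% of all genes were called lower. In Sleepy thalamus, with 6.11% of all genes called lower, Rbm3 differed by -0.26 ± 0.15 (adjusted p = 0.28) and Cirbp by -0.19 ± 0.09 (adjusted p = 0.18) with no overlap for Cirbp.

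Sleepy brains were compared with WT brains, both with eGFP, to read the effect of the Sik3 allele. Neither gene was called in any region at either time or with the times pooled, where 0.0359% of all genes were called in thalamus at ZT0.5, 0.0406% in hypothalamus with the times pooled, and 0% in the other 7 fits. In these 9 limma fits 776 to 1455 genes had an unadjusted p under 0.05, and voom called 0 to 35 genes. At ZT12.5 Rbm3 differed by -0.13 ± 0.06 in cortex, -0.15 ± 0.09 in thalamus and -0.12 ± 0.11 in hypothalamus, with adjusted p between 0.74 and 0.78. At ZT0.5 the Rbm3 values had the opposite sign, 0.10 ± 0.12, 0.21 ± 0.11 and 0.13 ± 0.14 (adjusted p at least 0.84). Cirbp in hypothalamus at ZT12.5 had 11.3, 13.5, 13.5 and 11.5 FPKM in Sleepy brains and 15.8, 13.6, 13.6 and 16.3 FPKM in WT brains. These groups did not overlap, but the difference of -0.22 ± 0.07 was not called (adjusted p = 0.52). Pooled over times, the 95% intervals for Rbm3 were -0.17 to 0.14 in cortex, -0.14 to 0.22 in thalamus and -0.21 to 0.20 in hypothalamus.

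Levels by region were read in WT brains with eGFP, 8 libraries a region over both times. Rbm3 averaged 5.41 FPKM in cortex, 5.19 FPKM in thalamus and 4.44 FPKM in hypothalamus, and Cirbp 6.63, 9.25 and 12.8 FPKM. The order of the 2 genes thus ran in opposite directions. In the fits, Rbm3 was higher in cortex than in thalamus by 0.35 ± 0.08 (adjusted p = 0.00075) and than in hypothalamus by 0.74 ± 0.08 (adjusted p = 2.4e-08), and lower in hypothalamus than in thalamus by a log2 difference of -0.38 ± 0.08 (adjusted p = 0.00034). Cirbp was lower in cortex than in thalamus (-0.19 ± 0.06, adjusted p = 0.011) and than in hypothalamus (-0.51 ± 0.06, adjusted p = 8.7e-08), and higher in hypothalamus than in thalamus (0.32 ± 0.06, adjusted p = 9.7e-05). All 6 were called, as were most genes: 27.2% of all genes were called higher and 32.1% lower in cortex against thalamus, 31.3% higher and 33.8% lower in cortex against hypothalamus, and 28.2% higher and 29.4% lower in hypothalamus against thalamus. Without rescaling, the median difference of all genes shifted by -0.265 for cortex against thalamus, by -0.394 for cortex against hypothalamus and by 0.128 for hypothalamus against thalamus, and with mCherry by -0.169 and -0.207 for cortex against thalamus and hypothalamus. It shifted by over 0.1 in 4 other fits: HDAC4CA against CREB in Sleepy thalamus (-0.117), time in Sleepy hypothalamus with HDAC4CA (-0.106), and the interactions of time with HDAC4CA in hypothalamus (-0.115) and with cortex against hypothalamus (-0.115). On deposited values Rbm3 differed between cortex and thalamus by 0.07 (adjusted p = 0.54), while the other 5 kept their sign and call. Rbm3 was then 0.32 higher in cortex than in hypothalamus and differed by -0.25 between hypothalamus and thalamus, both smaller in size than after rescaling. Cirbp differed by -0.47 between cortex and thalamus, by -0.93 between cortex and hypothalamus and by 0.46 between hypothalamus and thalamus, all larger in size.

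The ratio of Rbm3 to Cirbp, both per length, separated the regions in part. It was 0.637 to 1.01 in the 28 FPKM cortex libraries with a median of 0.831, 0.409 to 0.781 in thalamus with a median of 0.561 and 0.275 to 0.47 in hypothalamus with a median of 0.36. Cortex and hypothalamus did not overlap, and thalamus overlapped both.

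In WT brains at ZT12.5, HDAC4CA and CREB were set against mCherry in RPKM. In cortex Rbm3 had 4.48, 4.23, 3.94 and 1.54 RPKM with HDAC4CA, 5.22, 6.43, 4.91 and 2.18 RPKM with CREB, and 4.81, 4.68, 5.49 and 1.75 RPKM with mCherry. The last library of each group, replicate 4, is of the kind low in ribosomal protein genes, and its Rbm3 was below all other cortex libraries. Cirbp did not follow this split: it had 8.98, 8.13, 8.6 and 8.31 RPKM with HDAC4CA, 10.9, 9.64, 9.16 and 12.1 RPKM with CREB, and 10.6, 9.09, 11.8 and 10 RPKM with mCherry. Over the cortex libraries of this set, Rbm3 was 1.54 to 2.18 RPKM in the 3 low libraries and 3.94 to 6.43 RPKM in the 9 others, and Cirbp 8.31 to 12.1 RPKM in the low and 8.13 to 11.8 RPKM in the others. Gapdh, a glycolytic enzyme, was 5.85 to 6.47 RPKM in the low libraries and 51.4 to 59.7 RPKM in the others.

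**Figure D5:**
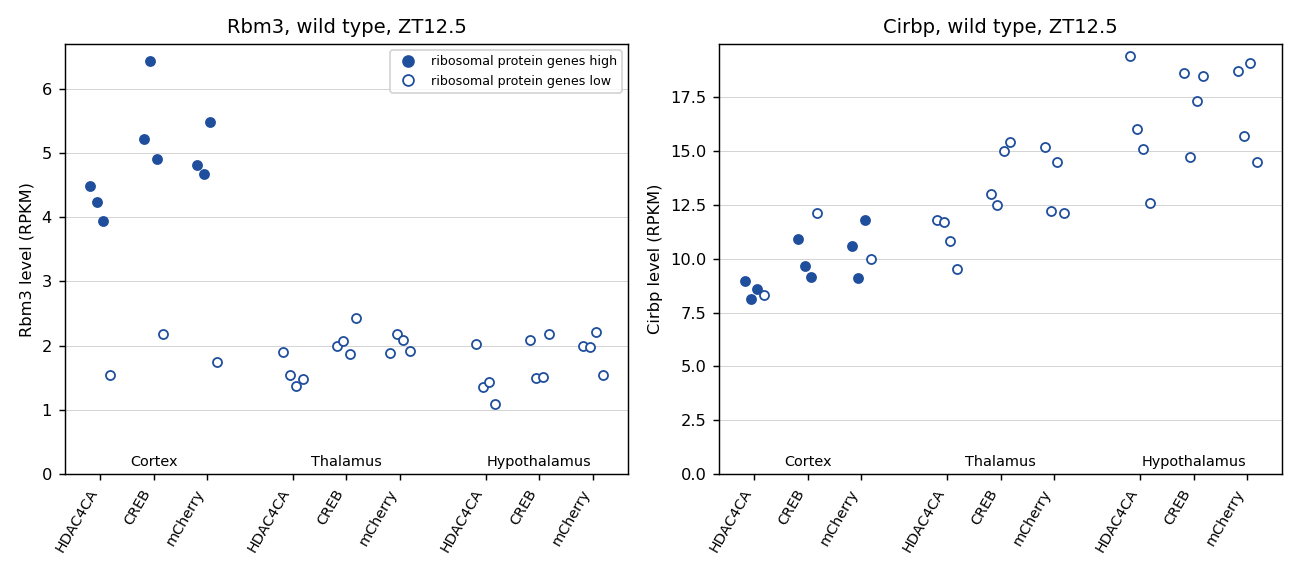
Levels of Rbm3 (left) and Cirbp (right) in RPKM in WT brains at ZT12.5 with HDAC4CA, CREB or mCherry, by region, where each point is 1 library and open points are libraries whose ribosomal protein genes were low. Rbm3 was 3.94 to 6.43 RPKM in the 9 libraries drawn filled and 1.1 to 2.43 RPKM in all open ones, while Cirbp shows no such step.

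No value of either gene against mCherry was called in WT brains, in any region and for either transgene (adjusted p at least 0.14). Every HDAC4CA library was below every mCherry library for Cirbp in cortex (-0.20 ± 0.1, adjusted p = 0.28) and in thalamus (-0.23 ± 0.08, adjusted p = 0.14), where 2.87% and 2.99% of all genes were called lower, and 0.0365% in hypothalamus. In thalamus Cirbp had 11.8, 11.7, 10.8 and 9.53 RPKM with HDAC4CA and 15.2, 12.2, 14.5 and 12.1 RPKM with mCherry. Rbm3 in thalamus had 1.91, 1.54, 1.37 and 1.48 RPKM with HDAC4CA and 1.88, 2.19, 2.09 and 1.92 RPKM with mCherry, and passed without HDAC4CA replicate 1 (-0.39, adjusted p = 0.024). CREB differed from mCherry by -0.03 to 0.20 for Rbm3 and 0.03 to 0.09 for Cirbp, with overlapping groups, where 0.0622%, 3.41% and 0% of all genes were called in cortex, thalamus and hypothalamus (654 genes at an unadjusted p under 0.05 in hypothalamus, and 1 by voom). In cortex the split between libraries gave Rbm3 an SE of 0.54 for HDAC4CA against mCherry, and 0.07 with a term for library kind (-0.14 ± 0.07, adjusted p = 0.21) or with the replicate number as a block.

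Against CREB in WT brains, Cirbp fell in thalamus, to 11.8, 11.7, 10.8 and 9.53 RPKM with HDAC4CA against 13, 12.5, 15 and 15.4 RPKM with CREB, without overlap. The difference of -0.29 ± 0.07 was called (adjusted p = 0.023), where 5.67% of all genes were called lower, and was lost without replicate 3 or 4 of either group (adjusted p up to 0.064) or without the filter (adjusted p = 0.07). In thalamus 3 of 10 astrocyte markers were lower and of 11 neuronal markers 4 were higher and 1, Gad1, lower with HDAC4CA, where 7.17% of all genes were called higher. Astrocyte markers summed to 523 to 584 RPKM with HDAC4CA and 607 to 627 RPKM with CREB, neuronal markers to 683 to 759 RPKM with HDAC4CA and 649 to 715 RPKM with CREB, and no marker was at 0. Their part in the lower Cirbp was not tested. In cortex Cirbp did not overlap between the groups (-0.23 ± 0.09, adjusted p = 0.15), where 2.79% of all genes were called lower. Rbm3 in cortex differed by -0.34 ± 0.5 (adjusted p = 0.76). With the replicate number as a block it was -0.34 ± 0.08 (adjusted p = 0.045), with a term for library kind -0.34 ± 0.07 (adjusted p = 0.023), and without the 2 low libraries -0.30 ± 0.08 (adjusted p = 0.095). In hypothalamus neither gene was called (Rbm3 -0.31 ± 0.16, Cirbp -0.16 ± 0.1), where 0.0425% of all genes were called lower.

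Region and library kind are largely mixed in the RPKM set. All 24 thalamus and hypothalamus libraries were low in ribosomal protein genes, against 3 cortex libraries, while the other 9 cortex libraries were high. In WT brains with mCherry, Rbm3 was 1.08 ± 0.32 higher in cortex than in thalamus and 1.18 ± 0.32 higher than in hypothalamus on the log2 scale (adjusted p = 0.013 and 0.0072, where 26.6% and 30.3% of all genes were called higher). Without cortex replicate 4, the low library of that cortex group, these became 1.47 and 1.58, between high cortex and low other libraries. Among the low libraries alone Rbm3 was 1.54 to 2.18 RPKM in cortex, 1.37 to 2.43 RPKM in thalamus and 1.1 to 2.22 RPKM in hypothalamus, ranges that overlapped. With mCherry the low cortex library had 1.75 RPKM, against 1.88 to 2.19 RPKM in thalamus and 1.54 to 2.22 RPKM in hypothalamus. Higher Rbm3 in cortex was thus not seen within the low kind, and the part of library kind in the called differences was not tested. Cirbp was lower in cortex than in hypothalamus by a log2 difference of -0.48 ± 0.1 (adjusted p = 0.001, 32.6% of all genes called lower), the same sign as in the FPKM set. It was not called between cortex and thalamus (-0.20 ± 0.1, adjusted p = 0.11, 32.2% of all genes called lower), and higher in hypothalamus than in thalamus by 0.29 ± 0.1 (adjusted p = 0.03, 23.9% of all genes called higher), a call lost without replicate 1 or 3 of hypothalamus or replicate 2 or 4 of thalamus (0.24 to 0.25, adjusted p 0.081 to 0.089) and without the filter (adjusted p = 0.067).

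Rbm3 and Cirbp moved together over libraries of the FPKM set. Pearson's r between them was 0.88 over 84 libraries after centring on region means, and 0.41 after centring on group means, so most of the shared movement lay between groups. In the RPKM set r was 0.43 and 0.33 over 36 libraries. These include the 3 low cortex libraries, where Rbm3 was 1.54 to 2.18 RPKM against 3.94 to 6.43 RPKM in the other cortex libraries, while Cirbp showed no such split. The r without them was not computed, so a weaker link than in the FPKM set was not shown. All these r values are descriptions, since libraries share groups, depth and scaling. The genes most like Rbm3 in the FPKM set, centred on region means, were its antisense neighbour Rbm3os (r = 0.92), Cirbp (0.88), Tsc22d3, a glucocorticoid-induced gene (0.83), the deubiquitinase Usp2 (0.81) and the transaminase Gpt2 (0.80), among 9001 genes. Those most like Cirbp were Rbm3 (0.88), the clock outputs Dbp (0.87) and Tef (0.80), Usp2 (0.83) and the sphingosine kinase Sphk2 (0.80). In the RPKM set the genes most like Cirbp were Ndst2 (0.76), Ufl1 (0.75), Arsg (0.75), Efnb3 (0.73) and Pllp (0.71).

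Rbm3os itself showed the time difference in the pooled fits, rising by 0.44 ± 0.12 in cortex (adjusted p = 0.0077), by 0.46 ± 0.15 in thalamus (adjusted p = 0.011) and by 0.96 ± 0.16 in hypothalamus (adjusted p = 0.00044). Its mean in WT hypothalamus with eGFP was 6.01 ± 2.09 FPKM at ZT12.5 and 2.75 ± 0.656 FPKM at ZT0.5 (SD, n = 4 each). In thalamus the means differed in value by condition. The interaction terms of time with genotype and with HDAC4CA there called 0% of all genes, so unlike time differences of Rbm3os were not shown. There Rbm3os averaged 5.35 ± 0.978 FPKM at ZT12.5 and 5.17 ± 0.968 FPKM at ZT0.5 in WT with eGFP. It averaged 5.35 ± 1.01 and 4.84 ± 0.659 FPKM in Sleepy with eGFP, and 5.87 ± 1.54 and 2.83 ± 0.994 FPKM in Sleepy with HDAC4CA. In the RPKM set, Rbm3os did not show the step of Rbm3: it was 2.0 to 2.93 RPKM in the 3 low cortex libraries and 2.06 to 4.23 RPKM in the 9 others, ranges that overlapped. How far reads in the 94 shared exon bases join the 2 genes was not tested.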

How the data were processed

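RNA-seq of polyadenylated RNA from 120 mouse brain samples in 30 groups of 4 was used. CASAVA 1.9, STAR 2.6.1a, featureCounts and edgeR 3.28.1 are named, with the build GRCm38, per the submitters' processing notes. The authors deposited RPKM values for 36 samples and FPKM values for 84, per gene and normalized to length and library size, and strand and multi-mapping settings are not given in the sources used here.

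Of 49585 rows, 26 with symbols turned into dates and 93 with repeated symbols were left out, and an exon length was found for 95.2% of the remaining 49466. Reads were recovered from deposited values and exon lengths: 94.3% to 95.7% of values up to 20 reads were whole within 0.1, and depth was 13520000 to 28160000 reads. Values were rescaled by the trimmed mean of M values within each comparison, and log2(value + 0.1) was tested with limma 3.58.1 (trend and robust) in R 4.3.3, with Benjamini-Hochberg adjustment over all genes tested. The pseudocount makes fold changes of low genes too small. Genes needed a mean of 10 recovered reads, or a value of 1 without a length. The main test ran on log values because the deposited units are not counts, and voom on recovered reads was an alternative, as were no rescaling, no filter, a pseudocount of 1, a replicate block, a term for library kind and each library left out. The code was tested on simulated data.

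Rbm3 and Cirbp and the gene lists were chosen with earlier results of these data known. Other genes were named by rule: at most 4 a list by smallest adjusted p, and the 5 most correlated with each member (those of Rbm3 in the RPKM set are not reported here); Rbm3os was added for its overlap with Rbm3, and Gapdh beside the library kinds, after values were seen. A library was of the low kind where 76 ribosomal protein genes averaged under 2.5 on the log2 scale. Nothing in the labels ties a library to an animal beyond calling the 4 replicates biological, so p-values measure the spread between these samples. Within groups, 180 pairs of libraries were compared and 0 were identical (lowest chi-square per gene 2.11). Replicate numbers were checked for pairing by correlating deviations from group means: all 4 correlations exceeded 0.1 in 3 of 36 comparisons, those of WT cortex (0.12 to 0.71), where replicate 4 carries the low kind in each group, and in 0 of 30 pairs of regions.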

Additional observations from a re-analysis of the deposited data

How the results depend on the processing

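Over the alternatives, 0 of the member values reversed. A pseudocount of 1 kept the call or its absence for all 120 values, and so did leaving out libraries of the low kind for its 6. Without rescaling, 4 calls were lost: Rbm3 in cortex against thalamus of WT with eGFP (0.07), and its time difference in Sleepy cortex with HDAC4CA (0.67), WT cortex (0.45) and WT hypothalamus (0.76). It gained 5: Cirbp in cortex against thalamus with mCherry (-0.38), with CREB against eGFP in Sleepy thalamus (0.32) and with HDAC4CA against CREB there (-0.32), and Rbm3 with HDAC4CA against CREB in Sleepy cortex (-0.40) and WT thalamus (-0.39). Without the filter on low values more genes entered the adjustment and 11 calls were lost. For Cirbp these were hypothalamus against thalamus with mCherry (0.29), HDAC4CA against CREB in Sleepy cortex (-0.33) and WT thalamus (-0.29), HDAC4CA against eGFP at ZT0.5 in cortex (-0.49) and thalamus (-0.46), and time in WT cortex (0.52). For Rbm3 they were CREB in thalamus (0.36), HDAC4CA at ZT0.5 in thalamus (-0.60), and time in Sleepy cortex with HDAC4CA (0.74), WT cortex (0.54) and WT hypothalamus (0.74).

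With voom on recovered reads 6 calls were gained: Cirbp for time in WT hypothalamus (0.46), and Rbm3 for time in Sleepy cortex with eGFP (0.33) and Sleepy hypothalamus with HDAC4CA (0.90), for HDAC4CA at ZT0.5 in cortex (-0.44), and for HDAC4CA against CREB in Sleepy cortex (-0.32) and WT thalamus (-0.38). The replicate block lost 5 Cirbp calls: HDAC4CA at ZT0.5 in cortex (-0.49) and thalamus (-0.46), HDAC4CA against CREB in Sleepy cortex (-0.33) and WT thalamus (-0.29), and time in Sleepy hypothalamus with HDAC4CA (0.67). The block gained 3: Cirbp in cortex against thalamus with mCherry (-0.20), and Rbm3 with HDAC4CA against CREB in Sleepy cortex (-0.31) and WT cortex (-0.34), the last also with a term for library kind (-0.34). Outside WT cortex the samples share only a number. Every library correlated best with its own number in 1 of 36 comparisons of groups (Sleepy against WT in hypothalamus at ZT12.5) and in 4 of 30 pairs of regions, a hint from the data and not the design, and in none of the 3 comparisons of WT cortex.

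Leaving out each library gave ranges, for results whose call changed at least once. For Cirbp these were 0.24 to 0.37 for hypothalamus against thalamus with mCherry, -0.40 to -0.26 for HDAC4CA against CREB in Sleepy cortex, -0.34 to -0.25 in WT thalamus, -0.55 to -0.39 and -0.54 to -0.39 for HDAC4CA at ZT0.5 in cortex and thalamus, -0.25 to -0.14 at ZT12.5 in cortex, and 0.62 to 0.72 and 0.45 to 0.58 for time in Sleepy hypothalamus with HDAC4CA and in WT cortex. For Rbm3 they were 0.32 to 0.41 for CREB in thalamus, -0.69 to -0.46 for HDAC4CA at ZT0.5 in thalamus, -0.38 to -0.23 and -0.44 to -0.27 for HDAC4CA against CREB in Sleepy cortex and WT thalamus, and -0.39 to -0.21 against mCherry in WT thalamus. For time, Rbm3 ranged over 0.62 to 0.85 and 0.80 to 1.01 in Sleepy cortex and hypothalamus with HDAC4CA, 0.16 to 0.30 in Sleepy thalamus with eGFP, and 0.46 to 0.61 and 0.64 to 0.81 in WT cortex and hypothalamus. In all, 56 of 1464 such values lost a call and 6 gained one. Apart from what fewer genes or samples in a fit do by construction, the cause was not tested.

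The number of all genes called moved by over 1.5 times in 24 of 60 fits without rescaling, 40 without the filter, 22 with voom, 18 with the block and 183 of 732 with a library left out. For time in WT cortex 246 genes were called, against 65 without the filter, 110 with the block and 695 with voom. Between 119 and 1306 recovered reads stood behind each value of the 2 genes, and 4 libraries a group limit precision further.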
